A study of Arabidopsis thaliana with 24 samples.

Results

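*SAUR9*, *SAUR10*, *SAUR50* and 6 close relatives (*SAUR6*, *SAUR7*, *SAUR8*, *SAUR12*, *SAUR51* and *SAUR54*) were followed through 2 microarray experiments on auxin-treated *Arabidopsis* hypocotyls. They were chosen by locus, as every row of the deposited tables that belongs to AT4G36110 (*SAUR9*), AT2G18010 (*SAUR10*), AT4G34760 (*SAUR50*), AT2G21210 (*SAUR6*), AT2G21200 (*SAUR7*), AT2G16580 (*SAUR8*), AT2G21220 (*SAUR12*), AT1G75580 (*SAUR51*) or AT1G19830 (*SAUR54*). All 9 loci were on both chips with 1 transcript each, among 30361 loci in experiment “a” and 32627 loci (37118 transcripts) in experiment “b”.

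SAUR (Small Auxin Up RNA) genes encode short proteins, and many of them are transcribed within minutes of an auxin stimulus. In the acid growth pathway, SAUR proteins bind and inhibit clade D PP2C phosphatases, which otherwise remove an activating phosphate from the proton pumps (AHA) of the plasma membrane, so that the wall acidifies and the cell expands. The 9 genes studied here are relatives within this family, and *SAUR10* is known to respond to auxin and brassinosteroid. *SAUR9* has been shown to inhibit a clade D phosphatase, and *SAUR50* is known as a light-responsive gene of cotyledons and hypocotyls. Particular roles are not given here for the other 6.

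Picloram is a synthetic auxin perceived mainly through AFB5, an F-box auxin receptor. All samples were dissected hypocotyls of 5-day-old, light-grown Col-0 seedlings moved to 5 µM picloram or to a solvent-only (DMSO) control. Experiment “a” had wild-type controls and picloram-treated seedlings at 30 min and at 2 h, with at least 400 hypocotyls pooled per replicate. Experiment “b” had wild-type and *afb5-5* mutant seedlings, each as control and on picloram for 2 h, with about 700 hypocotyls pooled per replicate. Each of the 8 groups held 3 biological replicates, and *afb5-5* is a mutant line represented by 1 allele. In experiment “a” the controls were all labelled with Cy5 and the picloram samples all with Cy3. Effects of dye and of picloram therefore cannot be told apart in that experiment, whereas all samples of experiment “b” carried Cy3. Levels below are log2 intensities. They are comparable between samples of an experiment, but not between genes or between the 2 chips.

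Markers of the tissues that a dissected hypocotyl could hold were read on the same chips. The level of a probe depends on the probe as well as on the transcript, so these values are a description and do not test the tissue label. The 3 epidermis markers (*ATML1*, *PDF1* and *FDH*) ranged from 13.52 to 15.98 in experiment “a” and from 11.11 to 14.30 in “b”. The 5 root markers ranged from 5.63 (*RHD6*) to 11.47 (*EXPA7*) in “a” and from 6.07 (*RHD6*) to 10.98 (*COBL9*) in “b”. The 3 shoot meristem markers ranged from 5.60 (*WUS*) to 8.85 (*STM*) in “a” and from 5.70 (*STM*) to 8.55 (*CLV3*) in “b”. Signal was therefore read for root and meristem markers too, and how much of it is background was not measured.

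*AFB5* transcript, from the gene mutated in *afb5-5*, was read in every sample of experiment “b”. In the controls it measured 13.38, 13.56 and 13.39 in wild type and 13.24, 13.06 and 12.97 in *afb5-5*, and under picloram 12.55, 13.16 and 12.65 in wild type and 13.16, 12.49 and 12.90 in *afb5-5*. The 3 untreated wild-type samples lay above the 3 untreated mutant samples, and also above the 3 wild-type samples on picloram. On picloram the genotypes overlapped. How many of all transcripts separate in these ways was not counted. The difference between the controls was 0.35 ± 0.20 (SE, n = 3 against 3, limma, adjusted p = 1), and the place of the *AFB5* probes relative to the mutation was not checked, so this transcript is no check of the genotype labels. The arrays measured pooled tissue, in which fewer cells of a kind and less RNA per cell cannot be told apart.

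*SAUR10* (chr2:7833782-7834653, TAIR10.1) had the steepest response of the 9 genes. In experiment “a” its log2 level was 10.37, 10.19 and 8.43 in the 30 min controls and 12.46, 13.60 and 13.17 after 30 min on picloram. At 2 h it was 10.38, 10.41 and 10.50 in the controls and 14.37, 14.41 and 14.35 on picloram. The order of the groups was control at 30 min, control at 2 h, picloram at 30 min and picloram at 2 h, with no overlap between neighbours, although the controls of the 2 times nearly touched. Replicate 3 of the 30 min controls stood well below the other 2.

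The change of *SAUR10* was 3.41 ± 0.44 (SE, n = 3 against 3) on the log2 scale at 30 min, a 10.6-fold rise with an adjusted p of 0.00746 from limma with Benjamini-Hochberg adjustment over all transcripts. It was the largest of 30361 measured increases at that time. At 2 h the change was 3.94 ± 0.44, or 15.4-fold (adjusted p = 0.000618), the sixth highest increase on the chip. Without the low control of replicate 3, the 30 min change was 2.79 (adjusted p = 0.0031). The difference between the 2 h and the 30 min response was 0.54, with a 95% interval from -0.82 to 1.89, and was not called.

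In experiment “b” *SAUR10* was dim, in the lowest 25% of the chip by mean level. It measured 6.69, 5.85 and 5.89 in wild-type controls and 7.46, 8.53 and 8.18 in wild type on picloram. In *afb5-5* it measured 6.65, 6.19 and 6.08 in the controls and 6.35, 6.50 and 6.10 on picloram. Only the picloram-treated wild type stood apart, and the other 3 groups overlapped. The wild-type change was 1.92 ± 0.29 on the log2 scale of the measured intensities (SE, adjusted p = 0.00505). Whether the low levels of the other groups lie above background was not measured, so no fold is given. The *afb5-5* change was 0.01, with a 95% interval from -0.63 to 0.65.

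*SAUR9* (chr4:17089934-17090873, TAIR10.1) had the second steepest response. In experiment “a” it measured 11.39, 11.38 and 9.69 in the 30 min controls and 13.59, 14.04 and 13.68 on picloram for 30 min. At 2 h it measured 12.03, 11.71 and 11.84 in the controls and 14.31, 14.13 and 14.40 on picloram. The groups followed the same order as for *SAUR10* and none overlapped, and the same 30 min control was low. *SAUR9* rose by 2.95 ± 0.37 at 30 min (7.72-fold, adjusted p = 0.00705) and by 2.42 ± 0.37 at 2 h (5.35-fold, adjusted p = 0.00314). Its 30 min increase was the fifth highest on the chip, and without that control it was 2.39 (adjusted p = 0.0014).

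In experiment “b” *SAUR9* measured 8.77, 9.96 and 8.74 in wild-type controls and 10.81, 10.85 and 10.90 on picloram. The 3 picloram samples lay close together, while replicate 2 of the controls stood well above the other 2. In *afb5-5* the levels were 10.00, 9.70 and 9.63 in the controls and 10.22, 9.47 and 9.76 on picloram. All 6 mutant samples lay below every picloram-treated wild-type sample and 4 of them lay below the high wild-type control. The wild-type change, a 3.24-fold rise, was 1.70 ± 0.30 (SE, adjusted p = 0.0108). It lost its call without replicate 3 of the controls (adjusted p = 0.0589), without replicate 3 of the picloram samples (0.0596) or when only the 2 groups compared were fitted (0.0612). In *afb5-5* the change was 0.04 ± 0.30.

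*SAUR50* (chr4:16582183-16583075, TAIR10.1) responded more weakly. In experiment “a” its level was 11.39, 12.16 and 12.01 in the 30 min controls and 12.93, 13.59 and 13.45 on picloram. At 2 h it was 12.37, 12.83 and 12.19 in the controls and 13.36, 13.28 and 13.60 on picloram. Every picloram sample lay above every control at each time, and the picloram groups of the 2 times overlapped. The change was 1.47 ± 0.25 at 30 min, which narrowly missed the threshold (adjusted p = 0.0513), and 0.95 ± 0.25 at 2 h (1.93-fold, adjusted p = 0.0358). With the replicate number as a block over both times the 30 min change was called (adjusted p = 0.0466). With the block set within each time point it was called too (adjusted p = 0.0242). In all, 4 of 20 alternatives called the 30 min change and 16 did not, with adjusted p up to 0.317. The 2 h call was lost in 5 of 6 fits that each left out a 2 h sample, with adjusted p between 0.0760 and 0.114, and with no normalization between arrays (0.0509).

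In wild type of experiment “b” *SAUR50* measured 10.47, 10.58 and 10.24 in the controls and 10.88, 11.24 and 10.91 on picloram. In *afb5-5* it measured 10.12, 10.44 and 10.43 in the controls and 10.19, 10.35 and 10.23 on picloram. The picloram-treated wild type again lay above all other samples. The wild-type change was 0.58 ± 0.16 (adjusted p = 0.0902). The adjusted p was 0.0453 with the replicate block over both genotypes and 0.0218 with the block and only the 2 wild-type groups. Under the other 19 of 21 alternatives it was not called, with adjusted p up to 0.333. In *afb5-5* the change was -0.08 ± 0.16.

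**Figure D1:**
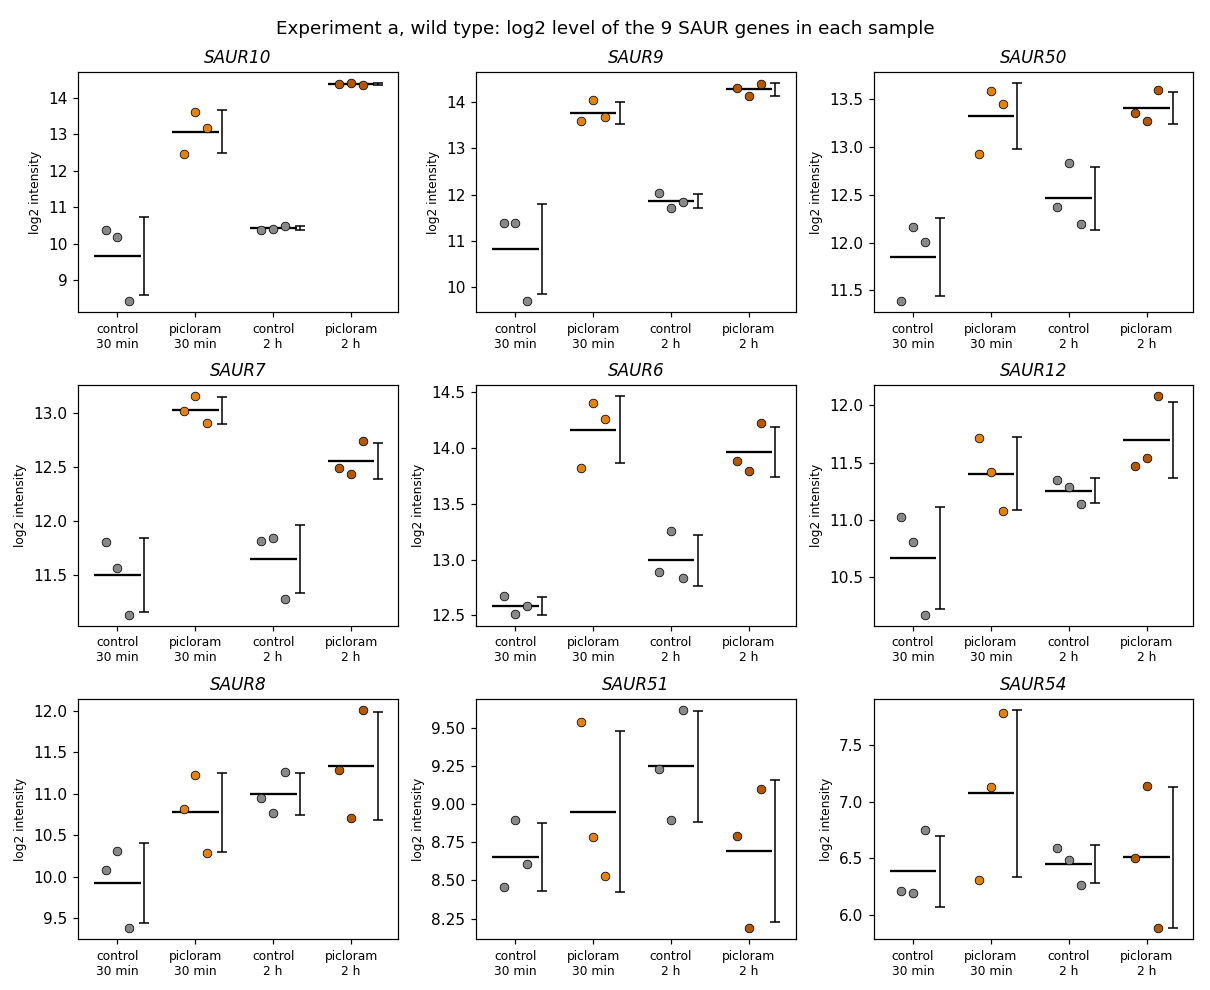
Log2 intensity (quantile normalized) of the 9 genes in each wild-type sample of experiment “a”. Each panel has its own vertical axis, points are the 3 replicates of a group, the horizontal line is their mean and the bar beside them is 1 SD; for *SAUR10* the controls lie between 8.43 and 10.50 and the picloram samples between 12.46 and 14.41.

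*SAUR7* (chr2:9083906-9084803), *SAUR6* (chr2:9084628-9086029) and *SAUR12* (chr2:9089226-9090052) form a tandem group on chromosome 2 in TAIR10.1. The annotated spans of *SAUR7* and *SAUR6* overlap by 176 bases, and their probes may therefore share signal. *SAUR12* starts 3196 bases after *SAUR6*, with 2 other annotated loci in between.

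*SAUR7* measured 11.81, 11.56 and 11.13 in the 30 min controls and 13.02, 13.15 and 12.90 on picloram, then 11.81, 11.84 and 11.28 in the 2 h controls and 12.49, 12.43 and 12.74 on picloram. *SAUR6* measured 12.67, 12.51 and 12.58 and then 13.83, 14.40 and 14.26 at 30 min, and 12.89, 13.26 and 12.84 and then 13.88, 13.80 and 14.22 at 2 h, controls before picloram. For both genes every picloram sample lay above every control of its time. *SAUR7* rose by 1.52 ± 0.21 at 30 min (2.87-fold, adjusted p = 0.0141) and by 0.91 ± 0.21 at 2 h (1.88-fold, adjusted p = 0.0193). *SAUR6* rose by 1.58 ± 0.19 at 30 min (2.98-fold, adjusted p = 0.00631) and by 0.97 ± 0.19 at 2 h (1.96-fold, adjusted p = 0.0101). The calls of *SAUR7* were lost at 30 min without control replicate 2 (adjusted p = 0.0576), control replicate 3 (0.0557) or picloram replicate 2 (0.0725). At 2 h they were lost without control replicate 3 (0.0612) or without any 1 of the 3 picloram samples (0.0511 to 0.0610).

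In experiment “b” the overlapping pair parted. *SAUR6* measured 10.32, 10.26 and 10.34 in wild-type controls and 9.91, 10.34 and 9.98 on picloram, and *SAUR7* measured 8.79, 8.51 and 8.28 and then 8.91, 9.14 and 8.99. The picloram samples of *SAUR7* all lay above its controls, whereas 2 of 3 for *SAUR6* lay below all of its controls. The change of *SAUR7* was 0.48 ± 0.15 (adjusted p = 0.164) and that of *SAUR6* was -0.23 ± 0.14 (adjusted p = 0.463). The 95% interval of the *SAUR6* change at 2 h ran from -0.53 to 0.07 in experiment “b” and from 0.55 to 1.40 in experiment “a”. The experiments differ in chip, dye layout, RNA amplification and laboratory, and no test was made across them.

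In *afb5-5*, *SAUR6* measured 10.46, 10.29 and 10.41 in the controls and 10.25, 10.15 and 10.19 on picloram. *SAUR7* measured 8.62, 8.71 and 8.64 in the controls and 8.39, 8.35 and 8.59 on picloram. For both genes the 3 picloram samples lay below the 3 controls, as for 1.75% of all transcripts. Neither decrease was called, with changes of -0.19 ± 0.14 for *SAUR6* and -0.22 ± 0.15 for *SAUR7* (limma, adjusted p = 1 for each).

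*SAUR12* measured 11.03, 10.81 and 10.17 in the 30 min controls and 11.72, 11.42 and 11.08 on picloram, then 11.35, 11.29 and 11.14 in the 2 h controls and 11.48, 11.54 and 12.08 on picloram. The picloram samples were above the controls at each time, yet the changes of 0.73 ± 0.25 (adjusted p = 0.426) and 0.44 ± 0.25 (adjusted p = 0.307) were not called. In experiment “b” it measured 7.96, 7.77 and 7.04 in wild-type controls and 7.67, 8.47 and 8.16 on picloram, and 7.40, 7.99 and 7.66 and then 7.80, 7.90 and 7.66 in *afb5-5*. All 4 groups overlapped, and the wild-type change was 0.51 ± 0.26 (adjusted p = 0.405).

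*SAUR8* (chr2:7184422-7187009) passed the threshold in no picloram comparison. It measured 10.08, 10.30 and 9.38 in the 30 min controls and 10.82, 11.23 and 10.28 on picloram, then 10.95, 10.77 and 11.26 in the 2 h controls and 11.28, 10.71 and 12.01 on picloram. Treated and control samples overlapped at each time. Within the same-numbered pairs the differences were 0.74, 0.93 and 0.91 at 30 min and 0.33, -0.06 and 0.75 at 2 h. The changes were 0.86 ± 0.36 (adjusted p = 0.557) and 0.34 ± 0.36 (adjusted p = 0.615). In experiment “b” all 12 samples lay between 6.94 and 7.56, around the limit of 7.19 below which the dimmest 25% of the chip falls, and the wild-type change was -0.03 ± 0.17.

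*SAUR51* (chr1:28377377-28378310) and *SAUR54* (chr1:6852116-6852945) lie on chromosome 1 and were called in no picloram comparison either. In experiment “a” *SAUR51* measured 8.46, 8.90 and 8.61 and then 9.54, 8.78 and 8.53 at 30 min, and 9.23, 8.89 and 9.62 and then 8.79, 8.19 and 9.10 at 2 h, controls before picloram. The changes were 0.30 ± 0.31 at 30 min and -0.55 ± 0.31 at 2 h (adjusted p = 0.891 and 0.289), and treated and control samples overlapped at each time. Within the pairs *SAUR51* differed by 1.08, -0.11 and -0.08 at 30 min and by -0.44, -0.70 and -0.52 at 2 h. In experiment “b” its 12 samples lay between 8.34 and 8.72, and the wild-type change of 0.00 had a 95% interval from -0.32 to 0.33.

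*SAUR54* was near the dim end of each chip, with 6.21, 6.20 and 6.75 in the 30 min controls, 6.31, 7.13 and 7.79 on picloram for 30 min, 6.60, 6.48 and 6.27 in the 2 h controls and 6.50, 7.14 and 5.89 on picloram for 2 h. Its changes of 0.69 ± 0.38 and 0.06 ± 0.38 were not called (adjusted p = 0.706 and 0.948), and within the pairs they were 0.10, 0.93 and 1.04 at 30 min and -0.09, 0.65 and -0.38 at 2 h. In experiment “b” it ranged from 5.62 to 6.46 over the 12 samples, within the dimmest 25% of the chip, where little can be said of a small change.

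**Figure D2:**
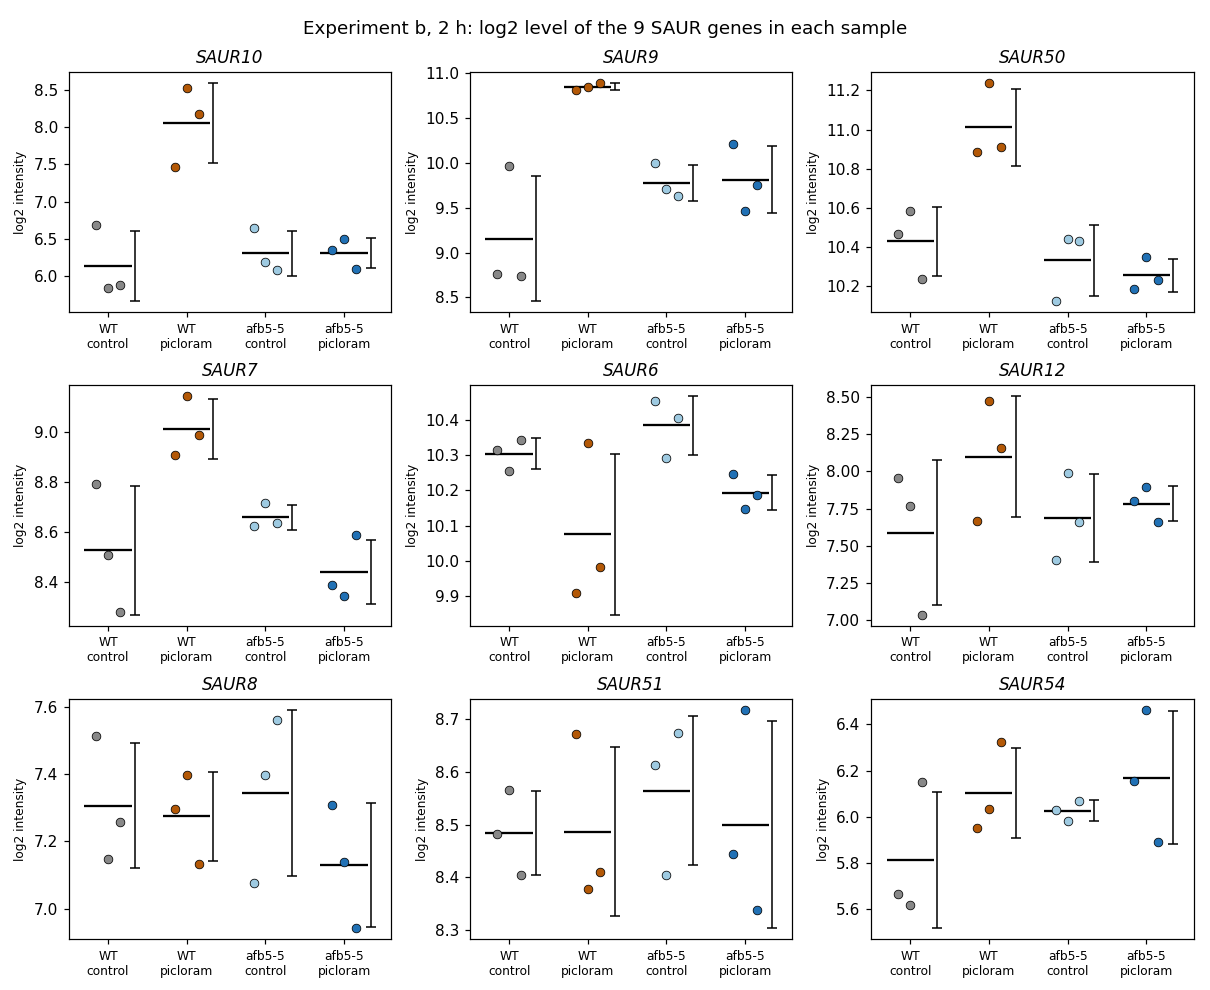
Log2 intensity of the 9 genes in each sample of experiment “b”, at 2 h, by genotype and treatment. Each panel has its own vertical axis, points are the 3 replicates of a group, lines are means and bars are 1 SD; for *SAUR10* the wild-type picloram samples lie between 7.46 and 8.53 and the other 9 samples between 5.85 and 6.69.

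After 30 min on picloram 4 of the 9 genes were called, all higher (*SAUR6*, *SAUR7*, *SAUR9* and *SAUR10*), where 0.155% of all transcripts on the chip were called higher and 0.208% in either direction. For 6 of the 9 every picloram sample exceeded every control, against 5.81% of all transcripts. The median change of the 9 was 1.47, and that of all transcripts was -0.01. When only the 2 groups at 30 min were fitted, no transcript of the chip was called, and the adjusted p of the 4 genes lay between 0.141 and 0.216. The summed level of the 3 shoot meristem markers ran from 8.91 to 9.26 in these controls and from 9.26 to 9.36 on picloram. Their part in the result was not tested.

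After 2 h in experiment “a” 5 of the 9 were called, all higher (the same 4 genes and *SAUR50*), where 5.53% of all transcripts were called higher and 11.4% in either direction. Again 6 of 9 had no overlap with their controls, against 17.3% of all transcripts. The median change of the 9 was 0.91, and that of all transcripts was -0.01. The summed epidermis markers ran from 16.91 to 17.00 in these controls and from 17.02 to 17.10 on picloram, and the 5 root markers from 9.91 to 10.83 and from 10.34 to 12.00. The sums are of linear intensities, in which a bright gene can outweigh the rest. Taken singly, the root markers changed by -0.47 to 2.67, with a median of -0.19, and 2 of the 5 were above 0. The part of these markers in the result was not tested.

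The 2 times share neither controls nor treated samples. The response at 2 h minus that at 30 min was below 0 for 8 of the 9 genes and above 0 for *SAUR10*, and none of these differences was called, where 0.846% of all transcripts were. The nearest to a call was *SAUR6*, at -0.60 ± 0.27 (adjusted p = 0.305). *SAUR51* had the most negative value, -0.85 ± 0.43 (adjusted p = 0.371).

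The controls of experiment “a” themselves differed with time, in a comparison within the same dye. All 9 genes were higher on average in the 2 h than in the 30 min controls, by 0.06 (*SAUR54*) to 1.07 (*SAUR8*), and in 6 of 9 the groups did not overlap, against 11.2% of all transcripts. None of the 9 was called, where 0.356% of all transcripts were called and 5005 had an unadjusted p under 0.05. *SAUR8* changed by 1.07 ± 0.36 (adjusted p = 0.183) and *SAUR9* by 1.04 ± 0.37 (adjusted p = 0.208). Without the low replicate 3 of the 30 min controls, *SAUR9* changed by 0.47 and *SAUR10* by 0.15. With no normalization between arrays the median of all transcripts moved to -0.20, and *SAUR7* (-0.08) and *SAUR54* (-0.07) then lay below 0 but above that median.

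In wild type of experiment “b” *SAUR9* and *SAUR10* were called, 2 of the 9 genes, where 1.71% of all transcripts were called higher and 2.17% in either direction. For 4 of the 9 (*SAUR7*, *SAUR9*, *SAUR10* and *SAUR50*) every picloram sample exceeded every control, against 10.8% of all transcripts. The median change of the 9 was 0.48, and that of all transcripts was -0.03. The summed epidermis markers ran from 14.28 to 14.44 in these controls and from 14.63 to 14.78 on picloram, and the photosynthetic markers from 15.01 to 15.11 and from 14.63 to 14.79. Their part in the result was not tested.

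In *afb5-5* none of the 9 was called, and the share over all transcripts was 0% (limma, 384 of 37118 with an unadjusted p under 0.05). The changes ran from -0.22 (*SAUR7*) to 0.14 (*SAUR54*), with a median of -0.06. The upper 95% bound was 0.65 for *SAUR10* and 0.68 for *SAUR9*, below the lower bounds of 1.28 and 1.05 in wild type. Both genes were called in wild type by the same fit, so the gap between these intervals is no test of the genotypes. The direct test of the difference in response, given below, called neither gene (limma, adjusted p = 0.178 for *SAUR10* and 0.338 for *SAUR9*). *SAUR10* was also dim in *afb5-5*, and whether its levels there lie above background was not measured.

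**Figure D3:**
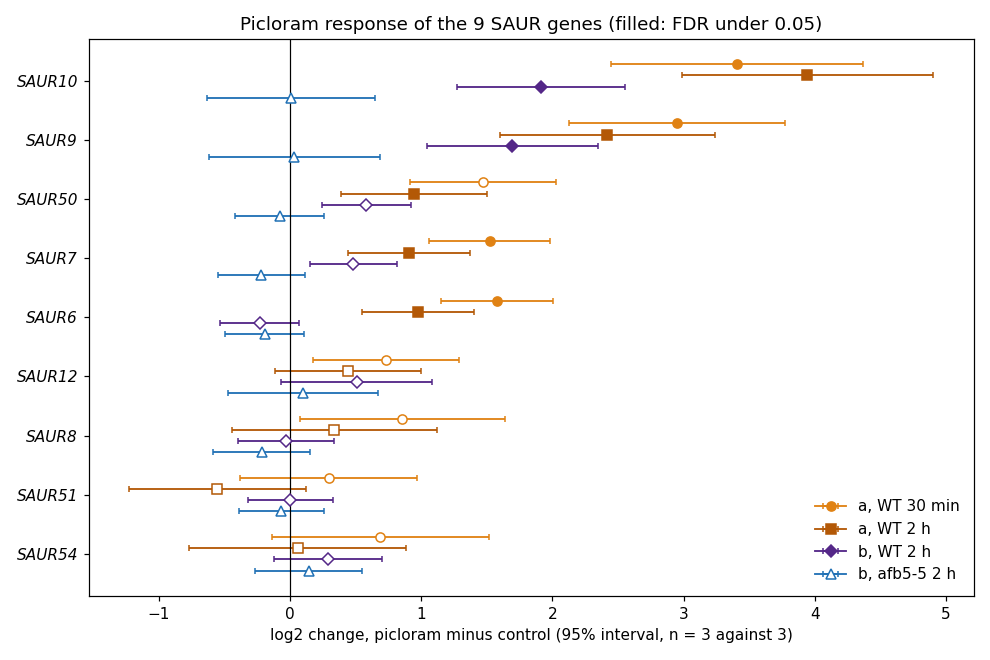
Log2 change on picloram (horizontal axis, picloram minus control) of each gene in the 4 comparisons, as the mean with its 95% interval from limma, n = 3 against 3. Filled symbols passed an FDR of 0.05, which 5 genes did in at least 1 comparison and none did in *afb5-5*.

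The difference of the picloram response between genotypes was tested directly as an interaction. It was largest for *SAUR10*, at 1.91 (95% interval 1.00 to 2.81, adjusted p = 0.178), and *SAUR9*, at 1.66 (0.74 to 2.58, adjusted p = 0.338). *SAUR7* (0.70 ± 0.21, adjusted p = 0.630) and *SAUR50* (0.66 ± 0.22, adjusted p = 0.795) followed. None of the 9 was called, where 0.102% of all transcripts were. Without the high replicate 2 of the wild-type controls, the difference for *SAUR9* was 2.06 and was called (adjusted p = 0.0353). It was called in only this 1 of 12 fits with a sample left out. Over the 12 fits the difference ran from 1.45 to 2.06 and the adjusted p from 0.0353 to 0.873.

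Under picloram, wild type exceeded *afb5-5* for *SAUR10* by 1.74 ± 0.29 (adjusted p = 0.0141, against mutant samples in the dim range of the chip) and for *SAUR50* by 0.76 ± 0.16 (1.69-fold, adjusted p = 0.0380). These were the 2 of 9 genes called, where 0.978% of all transcripts were called higher and 1.24% in either direction. *SAUR9* (1.04 ± 0.30, adjusted p = 0.179) and *SAUR7* (0.57 ± 0.15, adjusted p = 0.130) were not called, although in these 4 genes all wild-type samples lay above all mutant samples, as for 8.89% of all transcripts. The call of *SAUR10* was lost in 4 and that of *SAUR50* in 10 of 12 fits with a sample left out. Without replicate 2 of the wild-type controls, which is no part of this comparison, *SAUR9* was called (adjusted p = 0.0301). Its change stayed at 1.04, since that sample enters only the shared estimate of the spread. Of 12 fits with a sample left out, this was the only 1 that called *SAUR9*. The adjusted p reached 0.538 in the others.

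Between the untreated genotypes none of the 9 was called, and the share over all transcripts was 0% (limma, 338 of 37118 with an unadjusted p under 0.05). The widest difference was that of *SAUR9*, at -0.62 ± 0.30 for wild type minus *afb5-5* (adjusted p = 1). Its wild-type controls of 8.77 and 8.74 lay below the 3 mutant controls and the high one of 9.96 lay among them.

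The mean profile of the 9 genes was set against the rest of the genome over the 24 samples, after each gene was centred within its experiment. Each of the 9 is part of this mean, and levels were not scaled, so genes with larger changes weigh more in it. The r of a member with the mean is therefore partly built in, most of all for *SAUR10* and *SAUR9*. *SAUR10* and *SAUR9* tracked the mean of the 9 most closely (Pearson r = 0.961 for each), followed by *SAUR50* (0.907), *SAUR7* (0.896), *SAUR6* (0.844), *SAUR12* (0.779), *SAUR8* (0.676) and *SAUR54* (0.253), while *SAUR51* did not track it (0.00069). The highest pairs were *SAUR9* with *SAUR10* (0.94), *SAUR10* with *SAUR50* (0.86) and *SAUR7* with *SAUR9* (0.85). The lowest were *SAUR51* with *SAUR54* (-0.44), *SAUR8* with *SAUR54* (-0.29) and *SAUR10* with *SAUR51* (-0.17). The pooled order differs from that within experiment “b”. Over the 12 samples of experiment “b” the highest pairs were *SAUR7* with *SAUR10* (0.85), *SAUR7* with *SAUR50* (0.84) and *SAUR10* with *SAUR50* (0.84), and *SAUR9* with *SAUR10* gave 0.72. *SAUR6* parted from the others there, with -0.51 against *SAUR9*, -0.43 against *SAUR50*, -0.41 against *SAUR10* and -0.27 against *SAUR7*, where the same pairs gave 0.91, 0.94, 0.90 and 0.93 in experiment “a”. These correlations are descriptions over samples that share the treatment.

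Among 30188 other loci on both chips, those most like the mean of the 9 were *SAUR28* (AT3G03830, r = 0.979), *SAUR15* (AT4G38850, 0.961), *SAUR29* (AT3G03820, 0.958), *ACS5* (AT5G65800, 0.945) and *GA3OX1* (AT1G15550, 0.944), over 24 samples. *SAUR15* is a much used auxin marker, *ACS5* encodes an enzyme of ethylene synthesis and *GA3OX1* an enzyme that makes active gibberellin.

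Each chip also held 70 other loci that the annotation names SAUR. At 30 min 21 of them were called higher and 0 lower, with a median change of 0.42, where 0.155% of all transcripts were called higher. At 2 h in experiment “a” 28 were called higher and 6 lower, with a median of 0.42, and in wild type of experiment “b” 8 higher and 2 lower, with a median of 0.08. The shares of all transcripts called higher were 5.53% in “a” and 1.71% in “b”, and in either direction 11.4% and 2.17%. In *afb5-5* 0 were called, where the share over all transcripts was 0%. The changes there ran from -0.49 to 0.95, with a median of -0.04. The median of the 9 genes was thus above that of the other SAUR loci in each wild-type comparison, which is given as a description without a test. The 9 were chosen with earlier results of these data known, so this difference may in part come from the choice. Among the others called in wild type of experiment “b”, the changes ran from -1.17 for *SAUR59* to 2.00 for *SAUR35*, a range that takes in the changes of *SAUR9* and *SAUR10*.

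**Figure D4:**
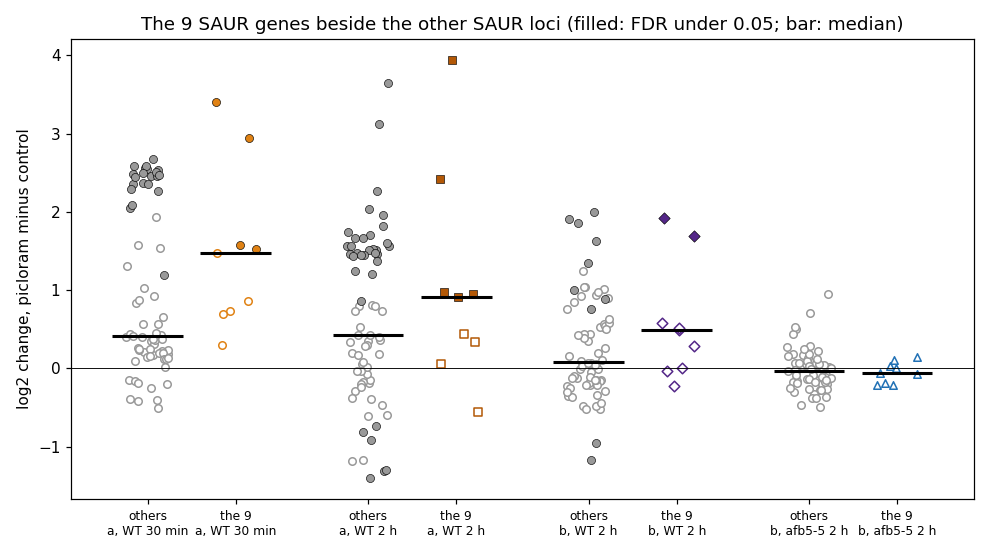
Log2 change on picloram (vertical axis) of the 9 genes beside the 70 other SAUR loci in the 4 comparisons, 1 point per gene. Filled points passed an FDR of 0.05 and bars mark medians, which were 1.47 and 0.42 at 30 min, 0.91 and 0.42 at 2 h in experiment “a”, and 0.48 and 0.08 in wild type of experiment “b”.

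The partners of SAUR proteins in the acid growth pathway were measured on the same chips. Over all transcripts, 0.155% were called higher at 30 min, 5.53% at 2 h in experiment “a”, 1.71% in wild type of “b” and 0% in *afb5-5*. Of the 9 clade D PP2C genes 0 were called at 30 min, and 3 were called higher and 0 lower at 2 h in each experiment in wild type. These were *PP2C-D1*, with changes of 3.89 ± 0.45 in experiment “a” and 1.67 ± 0.25 in “b”, *PP2C-D7* (1.76 ± 0.46 and 2.00 ± 0.27) and *PP2C-D2* (0.73 ± 0.15 and 0.56 ± 0.12). At 30 min *PP2C-D1* changed by 2.26 ± 0.45 (adjusted p = 0.0985). Of the 11 AHA proton pump genes 0 were called at 30 min, at 2 h in either experiment or in *afb5-5*, with median changes from -0.04 to 0.40.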

How the data were processed

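The deposited values are linear intensities, 1 per transcript, which the authors made from NimbleGen arrays with RMA in the R package oligo. Experiment “a” used amplified RNA, dual-color labeling and a chip annotated on TAIR8. Experiment “b” used unamplified RNA, single-color labeling and TAIR10. Array medians differed by up to 1.72-fold in “a” and 1.03-fold in “b”, so log2 values were quantile normalized in “a” and used as deposited in “b”. No pseudocount and no filter were applied.

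The 12 samples of an experiment entered a joint fit without covariates, by lmFit and eBayes of limma (version 3.58.1, under R 4.3.3). Adjusted p-values (Benjamini-Hochberg) cover all transcripts of the chip, and an FDR under 0.05 was called. Errors of changes are standard errors of that fit, and a change is log2 of picloram over control unless said otherwise. The script was tested on simulated data.

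Same-numbered replicates deviated together in wild type (r from 0.37 to 0.60 at 30 min, 0.34 to 0.55 at 2 h in “a”, 0.38 to 0.67 in “b”) and were taken as pairs there. The pairs were used for differences within pairs and in alternative fits with a replicate block. The changes, standard errors and calls reported first come from the joint fit, which does not use the pairing. In *afb5-5* r ran from 0.04 to 0.18 and the numbers were not taken as pairs. Between the 2 times of “a”, same-numbered controls gave r from -0.21 to -0.02. The replicate block over all 12 samples nevertheless spans both times of “a” and both genotypes of “b”.

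All 9 genes are named. Of each other list, up to 3 genes called in wild type of “b” at each end of the range could be named, and the 5 loci most like the mean of the 9 by Pearson r. Lists of SAUR, Aux/IAA and GH3 genes follow the names in the RefSeq annotation of TAIR10.1, leaving out loci that also carry an ARF name. The members and lists were chosen with earlier results of these data known. Alternatives were other normalizations, no dim transcripts, a replicate block, fits of 2 groups, a variance trend with a robust fit, locus means, an FDR under 0.01 and each sample left out. Sequences of the genes were not analysed here. Signal over background and 3 arrays per group limit the precision.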

Additional observations from a re-analysis of the deposited data

How the results depend on the processing

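Under 35 alternatives, 1601 values of the 9 genes were recomputed. None of the 260 that belong to a called change turned its sign, 43 of these calls were lost and 8 calls were gained, of which 28 and 3 came with a sample left out. Of the changes that were not called, 44 turned sign, none larger than 0.53 in size. At 30 min 4 genes were called in the fit as reported and 0 when only the 2 groups were fitted, where no transcript of the chip was called. At 2 h in experiment “a” 5 became 2 at an FDR of 0.01. In wild type of “b” 2 became 1 without the dimmest 25% (which removes *SAUR10*), 1 with only the 2 groups and 1 at an FDR of 0.01. Between the genotypes on picloram 2 became 1, 0 and 0 under the same 3 settings. With a sample left out the number called ran from 3 to 5 at 30 min, 3 to 5 at 2 h in “a”, 1 to 2 in wild type of “b”, 0 to 1 for the interaction with genotype and 0 to 3 between the genotypes on picloram, and it stayed at 0 in the other 4 comparisons.

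With the replicate block, 5 genes were called at 30 min, 5 at 2 h in “a” and 3 in wild type of “b” (*SAUR50* gained in the first and last), and no other call changed among the 9. The block gave 1295 calls over all transcripts in wild type of “b” against 804 without it. With only these 2 groups it gave 5961 against 425. In *afb5-5* it gave 0 for the 9. At 30 min *SAUR50* was also called with the block within each time point (adjusted p = 0.0242). The same held with a variance trend and a robust fit (adjusted p = 0.0074) and without the first picloram sample (0.0382). The causes were not tested. *SAUR10* and *SAUR54* in “b” are limited by dim signal.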

Other observations

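Other early auxin genes give a measure of the treatment on the same arrays. Over all transcripts, 0.155% were called higher at 30 min, 5.53% at 2 h in experiment “a” and 1.71% in wild type of experiment “b”. Of 29 genes of the Aux/IAA repressor family, 1 was called higher at 30 min (*IAA5*, by 3.03 ± 0.48). At 2 h in experiment “a” 9 were called higher and 1 lower (*IAA33*). In wild type of experiment “b” 8 were called higher and 0 lower, and *IAA19* rose most (2.28 ± 0.29). In *afb5-5* 0 of the 29 were called. Their changes ran from -0.41 to 0.48, with a median of 0.09, and 18 were above 0. Of 9 genes of the GH3 family, in which several enzymes conjugate auxin to amino acids, 2 were called higher at 30 min (*GH3.1* and *GH3.2*). At 2 h 6 were called higher in experiment “a” and 4 in wild type of experiment “b”, where *GH3.3* rose most (2.88 ± 0.28). In *afb5-5* 0 of the 9 were called, like every other transcript of the chip, yet all 9 changes were above 0. They ran from 0.02 to 1.41, with a median of 0.26. Of the 6 receptor genes of the TIR1/AFB family, *AFB1* alone was called, higher by 0.80 at 2 h in experiment “a”. In that comparison 11.4% of all transcripts were called in either direction, and dye and picloram cannot be told apart.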
